A study of Mus musculus with 4 samples.

Results

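The network described here consists of 10 genes of the Myc, Max and Mxd transcription factor network, out of 34866 genes in the deposited table. They are Myc, Mycn and Mycl, their partner Max, the antagonists Mxd1, Mxi1, Mxd3, Mxd4 and Mnt, and the related factor Mlx. All 10 were found by gene ID and all had a mean of at least 1 TPM (a transcript level per length, scaled to the same total in each library). The gene set was chosen by the level of Myc, which was lower in both mutant libraries, so the differences of the members between genotypes are given as values, without a test. RNA came from otic vesicles, the epithelial sacs that form the inner ear, of mouse embryos of strain C57/BL6 at day 11.5 of gestation. Wild-type embryos (WT) and Meis2 mutants (KO) gave 2 libraries each, numbered 1 and 2 in the titles. Meis2 is a homeobox gene of the TALE class. The sources used here do not give its mutant allele or say whether vesicles were pooled for a library, and nothing says that libraries came from separate litters. The p-values given below therefore reflect the spread of these libraries alone, and some of it may be technical.

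Myc family proteins are basic helix-loop-helix leucine zipper factors that bind DNA as heterodimers with Max, most tightly at the E-box CACGTG, and activate genes of cell growth, ribosome making and metabolism. Mxd proteins and Mnt also pair with Max, occupy the same E-boxes and recruit Sin3 and histone deacetylases, so they work as repressors. Mlx is a Max-like protein that pairs with the glucose-responsive Mondo proteins and with some Mxd proteins. Mycn is known to be required for growth of the embryonic inner ear.

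The E-box is the sequence that the network proteins bind, and the members whose own RefSeq promoters hold it are shown for that reason. Promoter sequences were found for 9 of the 10 members, in 11 windows of 300 bases (250 before and 50 after a start site, GRCm38.p6); Mxi1 has several windows and Myc has no entry. CACGTG, which reads the same on both strands, occurred in 4 of these 11 windows, those of Mxd4, Mnt, Mlx and Max, and in 7.15% of all 32851 promoter windows. Capitals mark the E-box, and each line reads 5′ to 3′ along the gene's strand.
Mxd4: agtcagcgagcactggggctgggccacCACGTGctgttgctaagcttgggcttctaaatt
Mnt: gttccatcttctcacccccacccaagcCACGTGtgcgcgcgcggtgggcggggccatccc
Mlx: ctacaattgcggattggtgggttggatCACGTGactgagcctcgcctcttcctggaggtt
Max: ctaccccggcgcggtgagcccggtCACGTG

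These stretches lie at chr5:34187897-34187956 on the minus strand for Mxd4, chr11:74830774-74830833 on the plus strand for Mnt, chr11:101087223-101087282 on the plus strand for Mlx and chr12:76962246-76962275 on the minus strand for Max. The E-box began 219 bases before the start site in Mxd4, 123 before it in Mnt, 40 before it in Mlx and 3 before it in Max. The hexamer TGACAG, the core to which Meis proteins bind, was searched on both strands. It occurred in 5 of the 11 member windows, those of Mycn, Max, Mxd1, Mxd3 and Mxd4, and in 19.2% of all windows. A match of letters is no evidence of binding, and no binding was measured here. The 4 genes with the E-box in the window overlapped between WT and KO in their TPM, as given below.

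Myc was the member with the largest difference between the genotypes. Myc (ENSMUSG00000022346.15, chromosome 15, 61985391 to 61990374, GRCm38), the founding member of the family and a driver of growth and proliferation, was at 17.9 (WT 1), 18.5 (WT 2), 9.99 (KO 1) and 9.32 TPM (KO 2). Both KO libraries lay below both WT libraries, and the libraries of each genotype lay close together. WT averaged 18.2 ± 0.447 TPM (SD, n = 2) and KO averaged 9.65 ± 0.472 TPM (SD, n = 2), so that the KO mean was 53.0% of the WT mean. The difference, KO minus WT on the log2(TPM + 1) scale, was -0.85 (SE 0.11). Taken by replicate number it was -0.78 (number 1) and -0.92 (number 2), whereas the libraries of 1 genotype differed by 0.05 (WT 2 minus WT 1) and -0.09 (KO 2 minus KO 1). For comparison, the median absolute difference between libraries over all genes tested was 0.14 within WT and 0.15 within KO.

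Mycn and Mycl, the other members of the Myc family, did not separate the genotypes. Mycn (ENSMUSG00000037169.15, chromosome 12, 12936093 to 12941914), the family gene of many embryonic progenitors, was at 73.95 (WT 1), 69.6 (WT 2), 66.2 (KO 1) and 82.3 TPM (KO 2). The WT values lay between the KO values, and the log2 difference was 0.04 (SE 0.12). Mycl (ENSMUSG00000028654.13, chromosome 4, 122995652 to 123002485), which encodes the more weakly transforming L-Myc, was at 26.1 (WT 1), 29.3 (WT 2), 21.9 (KO 1) and 28.8 TPM (KO 2). KO 1 was the lowest library and KO 2 lay between the WT libraries, for a log2 difference of -0.13 (SE 0.16) that was -0.32 without KO 2 and 0.06 without KO 1.

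Mycn was the main family transcript in every library. Summed over the family, the level was 117.9 (WT 1), 117.4 (WT 2), 98.1 (KO 1) and 120.4 TPM (KO 2), so that the totals of the genotypes overlapped. Mycn made up 62.7% and 59.3% of that sum in WT 1 and WT 2 and 67.5% and 68.4% in KO 1 and KO 2. The share of Myc was 15.2% and 15.8% in WT 1 and WT 2 and 10.2% and 7.74% in KO 1 and KO 2. Since the shares add up within a library, a lower share of Myc raises the others. They do not depend on how libraries are scaled to each other. Mycl made up between 22.1% and 24.9% in all 4 libraries, and its shares overlapped. Without Myc, the sum of Mycn and Mycl averaged 99.4 ± 0.810 TPM in WT and, with a wider spread, 99.6 ± 16.3 TPM in KO (SD, n = 2 each).

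**Figure D1:**
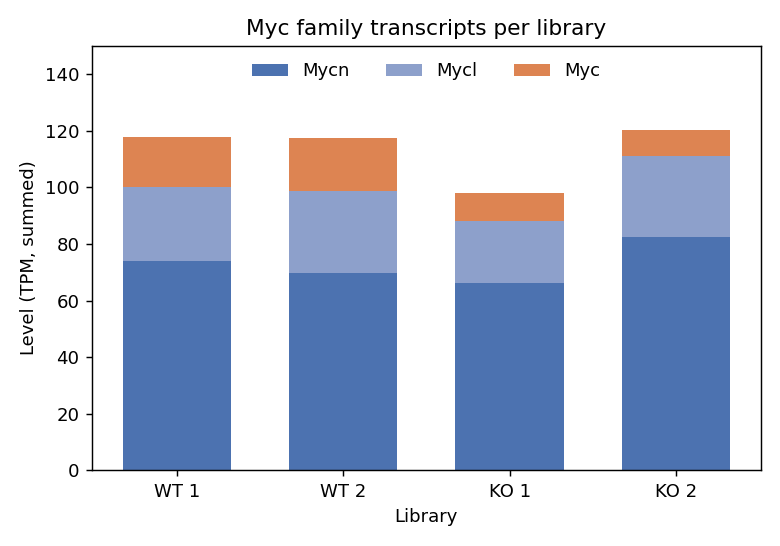
Stacked bars give the level of Mycn, Mycl and Myc in each library in TPM. Mycn is the largest part of each bar, and the Myc part is 17.9 and 18.5 TPM in WT 1 and WT 2 against 9.99 and 9.32 TPM in KO 1 and KO 2.

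Max, the shared partner, overlapped between the genotypes. Max (ENSMUSG00000059436.13, chromosome 12, 76937269 to 76962201) was at 53.4 (WT 1), 59.1 (WT 2), 56.8 (KO 1) and 57.0 TPM (KO 2), a log2 difference of 0.02 (SE 0.082). Both KO values lay between the WT values. Family transcripts amounted to 2.21 and 1.99 times Max in WT 1 and WT 2 and to 1.73 and 2.11 times Max in KO 1 and KO 2. Transcripts of the 5 antagonists that use Max (Mxd1, Mxi1, Mxd3, Mxd4 and Mnt) amounted to 2.05 (WT 1), 1.92 (WT 2), 2.08 (KO 1) and 2.06 (KO 2) times Max. The ratio of the family to Max overlapped between the genotypes. That of the antagonists was higher in both KO libraries than in both WT libraries, KO 2 by a small margin (2.056 against 2.047 in WT 1). Summed, the antagonists were at 109.4 (WT 1), 113.6 (WT 2), 118.5 (KO 1) and 117.1 TPM (KO 2). Of the 5, Mxd3 was the one that separated the genotypes on its own, as described below. The family amounted to 1.08 (WT 1), 1.03 (WT 2), 0.828 (KO 1) and 1.03 (KO 2) times these antagonists. Both KO ratios lay below both WT ratios, KO 2 by a small margin (1.028 against 1.033 in WT 2). These sums include Myc and the other genes of the chosen set, so they are a description.

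Among the antagonists, Mxd3 was higher in both KO libraries. Mxd3 (ENSMUSG00000021485.14, chromosome 13, 55325168 to 55329823), the Mxd gene known for expression in cycling cells, was at 20.9 (WT 1), 23.0 (WT 2), 27.5 (KO 1) and 26.4 TPM (KO 2). The groups did not overlap, and the KO mean was 123% of the WT mean, with a log2 difference of 0.29 (SE 0.096). By replicate number the difference was 0.38 (number 1) and 0.19 (number 2). Its gene overlaps Prelid1, on the opposite strand, by 105 bases. Prelid1 was at 294 to 304 TPM over the 4 libraries, and the sources used here do not say whether reads were assigned by strand.

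The other Mxd genes, which are linked to cells leaving the cycle and differentiating, overlapped between the genotypes. Mxd4 (ENSMUSG00000037235.13, chromosome 5, 34173883 to 34187720) was the most abundant antagonist, at 49.7 (WT 1), 51.3 (WT 2), 54.1 (KO 1) and 49.8 TPM (KO 2) (log2 difference 0.04, SE 0.080). It shares 357 bases of identical transcript sequence with Gm42846 on the opposite strand, whose level was not analysed here. Mxi1 (ENSMUSG00000025025.13, chromosome 19, 53310518 to 53375810) was at 13.99 (WT 1), 12.6 (WT 2), 12.6 (KO 1) and 13.9 TPM (KO 2) (log2 difference -0.00, SE 0.12). Mxd1 (ENSMUSG00000001156.9, chromosome 6, 86647042 to 86669161) was the least abundant member, at 7.88 (WT 1), 8.35 (WT 2), 7.38 (KO 1) and 8.61 TPM (KO 2) (log2 difference -0.02, SE 0.14). For Mxi1 and Mxd1 the difference changed sign between the replicate numbers, with -0.14 and 0.14 for Mxi1 and -0.08 and 0.04 for Mxd1.

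Mnt (ENSMUSG00000000282.12, chromosome 11, 74830920 to 74845725), the broadly expressed antagonist of Myc, was the member with the closest agreement between genotypes within each replicate number. It was at 16.97 (WT 1), 18.3 (WT 2), 16.8 (KO 1) and 18.3 TPM (KO 2), a log2 difference of -0.01 (SE 0.10). Mlx (ENSMUSG00000017801.15, chromosome 11, 101087277 to 101092207) was at 29.1 (WT 1), 30.1 (WT 2), 33.9 (KO 1) and 29.4 TPM (KO 2), a log2 difference of 0.09 (SE 0.10). KO 1 was the highest Mlx library and KO 2 lay between the WT libraries. Mlx shares 385 bases of identical transcript sequence, read from the opposite strand, with Psmc3ip, which was at 45.3 to 50.9 TPM, so the value of Mlx is uncertain to that extent.

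**Figure D2:**
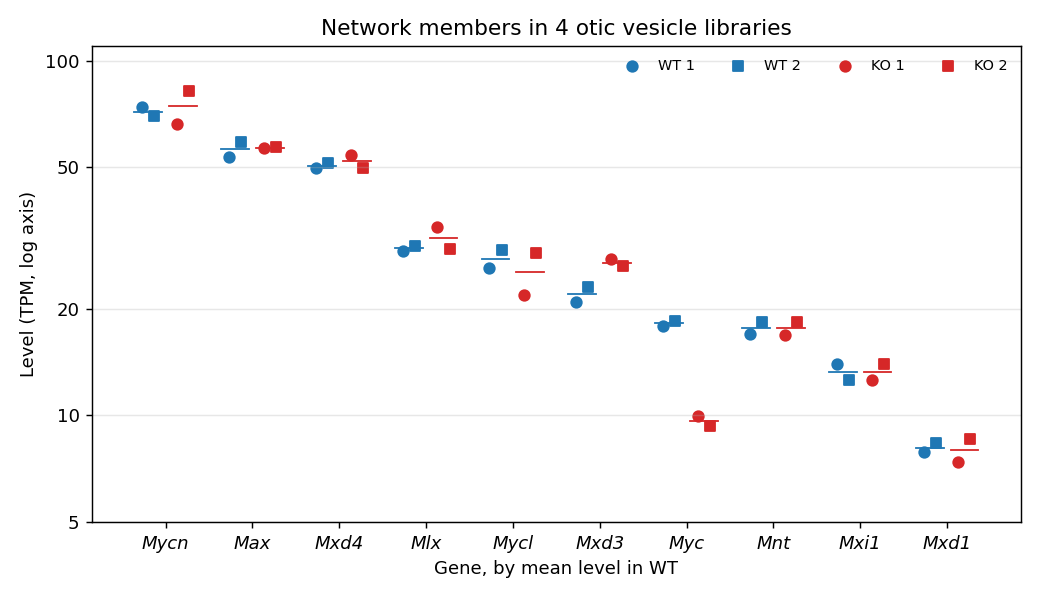
Points give the level of each member in TPM on a log axis in WT 1 and WT 2 (blue) and KO 1 and KO 2 (red), and lines give the mean of each genotype. Myc is the member whose KO points lie below its WT points, and Mxd3 the one whose KO points lie above.

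In WT the order of levels ran from Mycn (71.8 ± 3.08 TPM, SD, n = 2) through Max, Mxd4, Mlx, Mycl, Mxd3, Myc, Mnt and Mxi1 to Mxd1 (8.11 ± 0.332 TPM, SD, n = 2). Neighbours whose WT libraries overlapped were Mlx with Mycl and Myc with Mnt. The other neighbours did not overlap in WT. Over all 4 libraries Max also overlapped with Mxd4, and Mycl with Mxd3. In KO, Myc was number 9 of the 10 instead of number 7: its KO values of 9.32 and 9.99 TPM lay below those of Mxi1 (12.6 and 13.9) and above those of Mxd1 (7.38 and 8.61). The 8 members from Mycn to Mnt stood in the upper 52.2% of all genes tested by their WT mean, and Mycn had only 16.9% of genes above it.

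Counted over the network, 1 of the 10 members (Myc) lay lower in both KO libraries than in both WT libraries, against 10.5% of all 14496 genes tested. Mxd3 was the 1 member that lay higher in both, against 19.2% of genes. The other 8 overlapped. None of the 10 passed the threshold of limma over all genes (adjusted p under 0.05), against 0% of genes tested. A count of 0 passed in any list below therefore says nothing about that list. At an unadjusted limma p under 0.05 there were 507 of the 14496 genes. Without KO 1 the fit called 2 genes and without KO 2 it called 10, none of which was a member or belonged to another list described here. Since Myc chose the gene set, nothing is read from these counts. The median log2 difference of the 10 members was 0.01, and of the 9 members other than Myc 0.02, with a range from -0.13 (Mycl) to 0.29 (Mxd3). The median of all genes tested was 0.03. A difference at or below that of Myc was found for 129 genes (0.890% of those tested), of which 75 did not overlap between the genotypes. Of these 75, 26 were coding, whereas 13503 of all 14496 genes tested were coding.

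**Figure D3:**
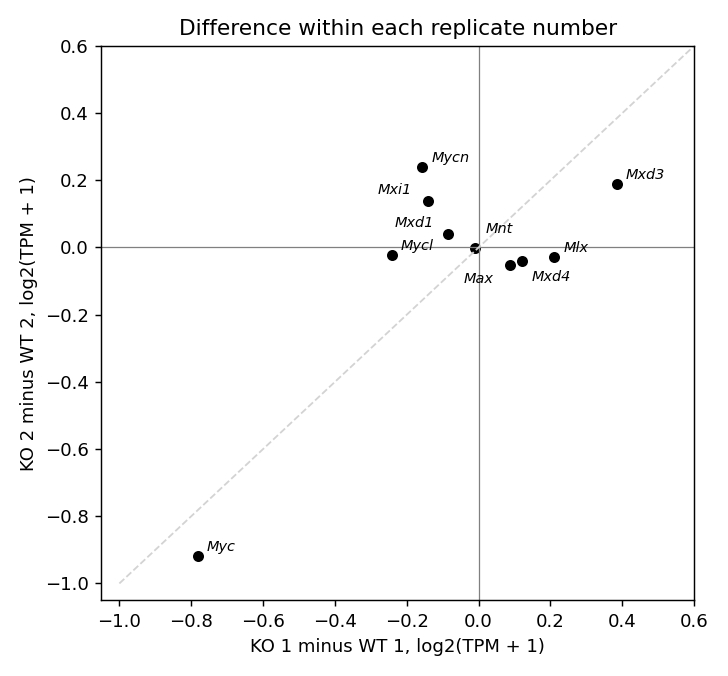
Each point is a member, with the difference KO 1 minus WT 1 on the x axis and KO 2 minus WT 2 on the y axis, both in log2(TPM + 1); the dashed line marks equal differences. Myc lies at -0.78 and -0.92, Mxd3 at 0.38 and 0.19, and the other 8 between -0.24 and 0.24 on both axes.

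Markers of the cell types in the dissection also differed between libraries. Of 15 genes of the otic epithelium, 12 were lower in KO by their mean log2 difference, with a median of -0.19, where 5573 of all 14496 genes were lower. Of the 15, 10 lay lower in both KO libraries than in both WT libraries, against 10.5% of all genes. Their summed level was 2121 and 1969 TPM in WT and 1630 and 1763 TPM in KO. Of these genes Lmx1a, a LIM homeodomain factor of the dorsal vesicle, had the smallest p (log2 difference -0.28, SE 0.067; limma adjusted p = 1.00). Of 13 genes of the periotic mesenchyme, the connective tissue outside the vesicle, 12 stood higher in KO, with a median of 0.26. Only 3 of the 13 lay higher in both KO libraries than in both WT libraries, against 19.2% of all genes. In the other direction 1 lay lower in both, against 10.5%. The sum of the 13 ranged from 829 to 966 TPM in WT and from 889 to 1278 TPM in KO. The median was 0.55 without KO 2 and 0.02 without KO 1. The matrix gene Lum was at 24.2 and 15.7 TPM in WT and 42.2 and 31.6 TPM in KO. Per 100 TPM of the summed epithelial genes, Myc was at 0.843 and 0.940 TPM in WT and 0.613 and 0.529 TPM in KO. Per 100 TPM of Epcam, which encodes an adhesion protein of epithelia, Myc was at 8.53 and 9.36 TPM in WT and 5.54 and 4.96 TPM in KO. Both ratios reuse the Myc values that chose the gene set and are given as a description. In bulk tissue fewer cells of a type and less RNA per cell cannot be told apart, and the part of composition in the values of Myc and the other members was not tested.

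Sums for the remaining cell types were as follows. The summed level of 13 neuronal genes was 391 and 660 TPM in WT and 318 and 963 TPM in KO, and that of 12 erythroid genes was 10872 and 26029 TPM in WT and 13515 and 15373 TPM in KO. Endothelial genes (10) summed to 256 and 281 TPM in WT and 316 and 257 TPM in KO, and macrophage genes (11) to 61.1 and 74.4 TPM in WT and 95.2 and 61.9 TPM in KO. These 4 sums overlapped between the genotypes. The 8 hindbrain genes summed to 176 and 127 TPM in WT and 241 and 196 TPM in KO, and the 8 keratinocyte and keratin genes to 301 and 298 TPM in WT and 239 and 232 TPM in KO. The hindbrain sum was thus higher, and the keratin sum lower, in both KO libraries. By their mean log2 differences 11 of 13 tested neuronal, 8 of 10 endothelial, 8 of 11 macrophage and 2 of 4 tested hindbrain genes were higher. Of all 14496 genes, 8923 were higher. Lower were 10 of 12 erythroid genes and 5 of 5 tested keratinocyte and keratin genes, and 0 genes of these lists passed. By replicate number (1 and 2) the list median changed sign for neurons (-0.35 and 0.54), erythroid cells (0.34 and -0.69) and macrophages (0.46 and -0.26). It was 0.29 and 0.01 for endothelium, 0.37 and 0.18 for hindbrain and -0.34 and -0.37 for the keratinocyte and keratin genes. Of the 8 keratinocyte and keratin genes only 5 reached a mean of 1 TPM and were tested. Among these Krt8, a keratin of simple epithelia and so not particular to epidermis, had the smallest p (log2 difference -0.40, SE 0.064, limma adjusted p = 1.00). The hindbrain sum consisted mainly of Zic1, at 106.5 (WT 1), 77.2 (WT 2), 146 (KO 1) and 129 TPM (KO 2) (log2 difference 0.60, SE 0.17), and Zic2, at 62.8 (WT 1), 44.1 (WT 2), 87.3 (KO 1) and 62.7 TPM (KO 2). The other tested members were Hoxb2 (-0.03) and Pax3 (-0.05), and Hoxb1, Pax6, Olig2 and Sox1 had a mean below 1 TPM. Whether the libraries differed in hindbrain tissue was not tested. Zic2, Hoxb2 and Pax3 were named after their values were seen. Among the others the genes with the smallest p were Prph of neurons (0.51, SE 0.15), the globin gene Hbb-bs (0.59, SE 0.18), Emcn of endothelium (0.33, SE 0.097) and Lyz2 of macrophages (0.33, SE 0.17).

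Further network proteins had genes both higher and lower in KO. Of 7 listed, 6 were tested (4 higher and 2 lower in KO), Mycs was at 0.07 TPM in KO 2 and listed at 0 elsewhere, and 0 passed limma over all genes, with a median log2 difference of 0.10. Mga, a large Max partner, was at 29.6 and 32.5 TPM in WT and 31.1 and 36.2 TPM in KO. Of the Mondo proteins that pair with Mlx, Mlxip was at 19.8 and 21.7 TPM in WT and 20.7 and 23.5 TPM in KO. Mlxipl was at 4.15 and 6.51 TPM in WT and 5.22 and 8.89 TPM in KO, and all 3 genes overlapped. The genes with the smallest p were Mycbpap, at 5.41 and 5.49 TPM in WT and 3.37 and 4.08 TPM in KO (log2 difference -0.45, SE 0.17), and Mycbp, which encodes a protein that binds Myc, at 36.7 and 40.3 TPM in WT and 31.2 and 36.5 TPM in KO (-0.18, SE 0.11). Mga, Mlxip and Mlxipl were named after their values were seen.

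Genes of proteins that work with the network stood near the median of all genes. Of 19 coactivators, such as the acetyltransferase complex and chromatin remodellers that Myc recruits, 12 were higher and 7 lower in KO with a median of 0.02, and 0 passed. Paf1, of an elongation complex, was at 0.13 (SE 0.081) and Ruvbl1, a helicase of the remodelling complexes, at -0.09 (SE 0.062). Of 15 corepressors, such as subunits of the Sin3 complex, 8 were higher and 7 lower with a median of 0.02, and 0 passed. Sap18, a Sin3-associated protein, was at 13.5 and 16.6 TPM in WT and 17.7 and 21.9 TPM in KO (0.37, SE 0.16).

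Transcripts of factors that set Myc protein stability lay close together. Of 21 tested, 9 were higher and 12 lower with a median of -0.01 and a range from -0.15 to 0.13, and 0 passed. Axin1, a scaffold of the Wnt and Myc degradation complexes, was at 42.5 and 50.8 TPM in WT and 43.6 and 39.95 TPM in KO (-0.15, SE 0.12). Fbxw7, the ubiquitin ligase subunit that binds phosphorylated Myc, was at 11.8 and 11.0 TPM in WT and 12.0 and 13.1 TPM in KO (0.13, SE 0.11). These values describe RNA, and the amount of Myc protein was not measured.

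Of 24 factors known to act on transcription of Myc in other tissues, 16 were higher and 8 lower in KO with a median of 0.06, and 0 passed limma over all genes. Tcf7, a nuclear partner of beta-catenin in Wnt signalling, was at 22.5 and 24.8 TPM in WT and 19.0 and 19.0 TPM in KO (log2 difference -0.30, SE 0.097; limma adjusted p = 1.00). The retinoic acid receptor gene Rarb was at 7.74 and 5.50 TPM in WT and 11.8 and 9.57 TPM in KO (0.62, SE 0.20; limma adjusted p = 1.00). Neither overlapped between the genotypes. Of 5 tested genes that lie near Myc, Mycn or Mycl in the genome, 3 were higher and 2 lower, from -0.06 to 0.10, and 0 passed. The first by p were Trit1 near Mycl (0.10, SE 0.10) and Mfsd2a near Mycl (0.09, SE 0.16). Fam49b, on the chromosome of Myc, was at 104.8 and 88.6 TPM in WT and 95.3 and 89.4 TPM in KO. Its libraries overlapped, unlike those of Myc; it was named after its values were seen.

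The RNA-binding proteins Lin28a and Lin28b block the let-7 microRNAs, which target Myc family transcripts. Of 11 genes of this axis, 8 were lower and 3 higher with a median of -0.03, and 0 passed. Lin28a was at 14.6 (WT 1), 26.3 (WT 2), 9.65 (KO 1) and 9.56 TPM (KO 2) (log2 difference -0.96, SE 0.28; limma adjusted p = 1.00). The groups did not overlap, but WT 2 stood well above WT 1. Lin28b was at 24.2 and 30.5 TPM in WT and 16.8 and 25.2 TPM in KO, and its libraries overlapped (-0.39, SE 0.23).

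Genes that Myc is known to activate had small differences, with a larger share lower in KO than among all genes tested. Of 70 genes of ribosome making, nucleotide synthesis and growth, 50 were lower and 20 higher in KO by mean log2 difference, with a median of -0.04, and 0 passed limma over all genes tested. The same count over all 14496 genes was 5573 lower and 8923 higher, with a median of 0.03. In this list 13 of the 70 genes lay lower in both KO libraries, against 10.5% of all genes tested, and 3 of the 70 lay higher in both, against 19.2%. By replicate number the median was -0.05 (number 1) and -0.01 (number 2), and it was -0.07 with median-of-ratios scaling, under which the median of all genes was 0.00. All 70 differences lay between -0.26 and 0.29. Their summed level was 19161 and 17862 TPM in WT and 17861 and 17757 TPM in KO. WT 1 stood above the other libraries, and WT 2 lay beside KO 1. The sum leans on a few high genes, such as Ptma and Ldha, named after their values were seen. Ptma was at 6342 and 5602 TPM in WT and 5915 and 5610 TPM in KO. Ldha was at 1250 and 925 TPM in WT and 818 and 1051 TPM in KO.

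The 4 targets with the smallest p differed in direction. Nme1, a nucleoside diphosphate kinase, was at 127 and 112 TPM in WT and 155 and 138 TPM in KO (log2 difference 0.29, SE 0.10). Phb, a prohibitin of the mitochondrial inner membrane, was at 261 and 247 TPM in WT and 232 and 204 TPM in KO (-0.22, SE 0.090). Tfrc, the transferrin receptor of iron uptake, was at 57.2 and 59.9 TPM in WT and 44.3 and 53.8 TPM in KO (-0.26, SE 0.12). It is also a gene of red cell precursors, whose summed marker level is given above. Exosc5, a subunit of the RNA exosome, was at 57.0 and 58.2 TPM in WT and 50.7 and 54.0 TPM in KO (-0.14, SE 0.075). The limma adjusted p of each of these 4 was 1.00.

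Genes that Myc is known to repress went both ways. Of 16 listed, 15 were tested, 10 were higher and 5 lower in KO with a median of 0.09, and 0 passed. Clu, which encodes the secreted chaperone clusterin, was at 33.3 (WT 1), 26.9 (WT 2), 9.19 (KO 1) and 13.2 TPM (KO 2) (log2 difference -1.36, SE 0.21; limma adjusted p = 1.00). Cdkn1a, the cell cycle inhibitor p21 and also a target of p53, was at 20.025 and 25.9 TPM in WT and 14.2 and 17.0 TPM in KO (-0.52, SE 0.17; limma adjusted p = 1.00). Both lay lower in KO, as Myc did. Of the 15, 3 lay lower in both KO libraries, against 10.5% of all genes tested, and 2 higher in both, against 19.2%. These 2 were Thbs1, at 63.7 and 45.3 TPM in WT and 111.3 and 72.6 TPM in KO, and Ndrg1. Ndrg1 was at 3.18 and 3.80 TPM in WT and 6.32 and 4.08 TPM in KO. Col1a2, at 147 and 109 TPM in WT and 251 and 145 TPM in KO, overlapped. Thbs1 and Col1a2 encode matrix proteins, and the part of mesenchyme in their values was not tested. Thbs1, Ndrg1 and Col1a2 were named after their values were seen.

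Targets of Mlx and the Mondo proteins and the cell cycle genes lay on both sides of 0. Of 10 Mondo and Mlx targets, 6 were lower and 4 higher with a median of -0.03, and 0 passed. Fasn, the fatty acid synthase, was at 0.14 (SE 0.090), and Txnip, a glucose-induced inhibitor of thioredoxin, was at 31.8 and 31.2 TPM in WT and 41.3 and 31.9 TPM in KO. Of 23 cell cycle genes, 12 were higher and 11 lower with a median of 0.01 and a range from -0.15 to 0.09, and 0 passed. Pcna, the sliding clamp of replication, was at 414 and 359 TPM in WT and 349 and 346 TPM in KO (-0.15, SE 0.091), and the helicase subunit gene Mcm2 at 154 and 159 TPM in WT and 149 and 143 TPM in KO (-0.10, SE 0.066). Of the 23, 5 lay lower in both KO libraries, against 10.5% of all genes tested, and 2 lay higher in both, against 19.2%.

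**Figure D4:**
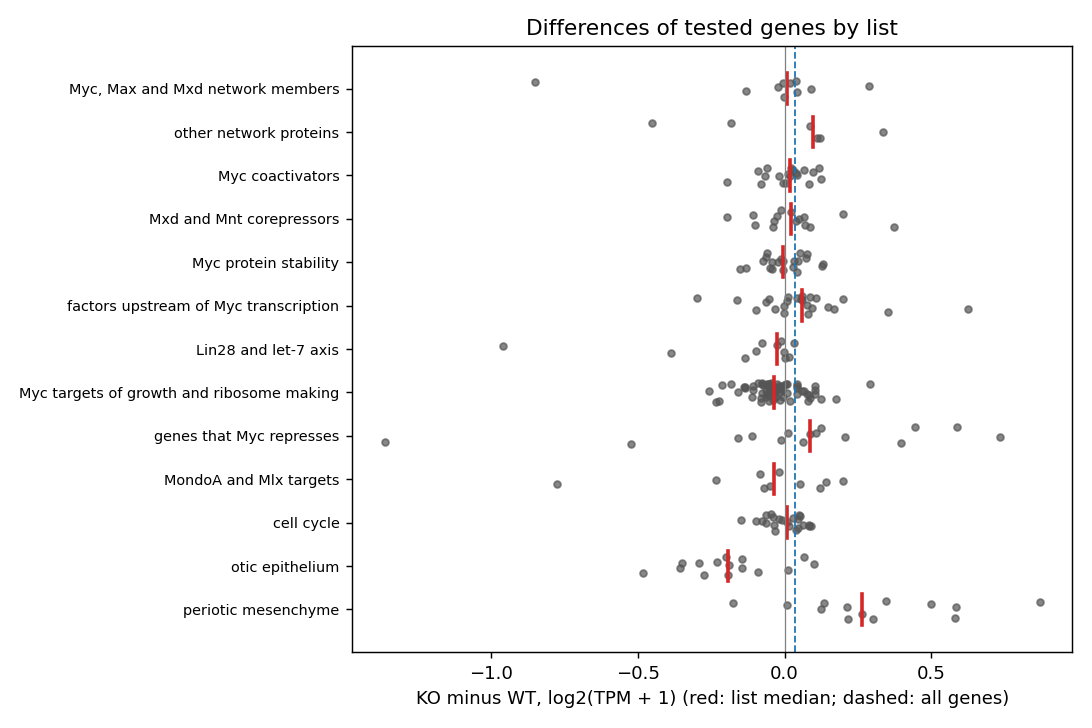
Each point is a tested gene, placed by its log2(TPM + 1) difference, KO minus WT, in the list named on the y axis; red bars are list medians and the dashed line is the median of all genes tested (0.03). The 70 growth targets centre on -0.04, and the otic epithelium and mesenchyme lists centre on -0.19 and 0.26.

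The genes most like Myc over the 4 libraries were Cyp26c1, Trmt9b, Lars2, Prdm1 and Sall4. Likeness was the Euclidean distance between log2(TPM + 1) profiles, each centred on its mean. It was ranked among the 10598 coding genes whose mean reached 5 TPM, leaving out genes without a symbol or with Gm or Rik symbols. With 4 libraries this ranks genes by their difference between genotypes above all, and it is a description. Cyp26c1, a retinoic acid degrading enzyme, was the nearest (distance 0.142), at 125 and 142 TPM in WT and 80.9 and 77.1 TPM in KO. Trmt9b, a tRNA methyltransferase-like gene, followed (0.183), at 8.25 and 9.15 TPM in WT and 5.05 and 3.80 TPM in KO. Lars2, the mitochondrial leucyl-tRNA synthetase, stood at a distance of 0.243, Prdm1, a zinc finger repressor of cell fate, at 0.247 and Sall4, a zinc finger factor of embryonic progenitors, at 0.261. All 5 lay lower in both KO libraries than in both WT libraries, as the measure implies.

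**Figure D5:**
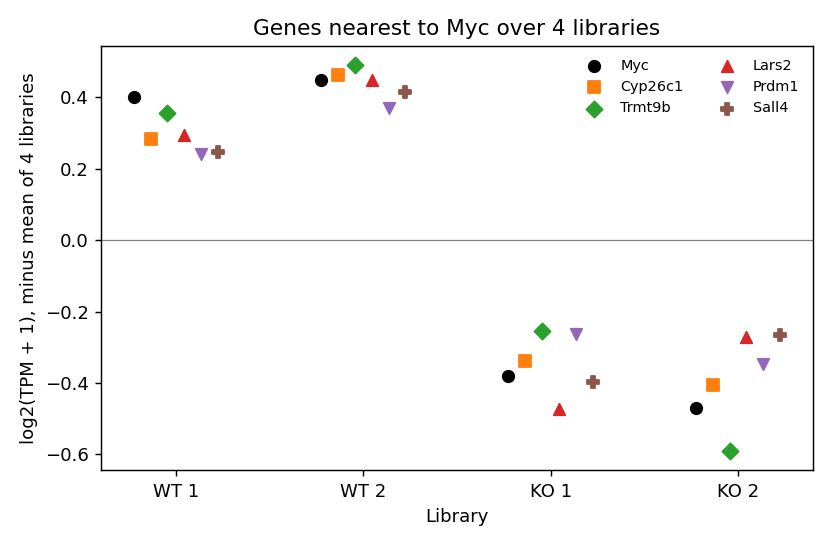
Points give log2(TPM + 1) minus the gene's mean over the 4 libraries for Myc (black) and the 5 genes nearest to it. All 6 genes lie above 0 in WT 1 and WT 2 and below 0 in KO 1 and KO 2.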

How the data were processed

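The authors deposited gene-level TPM for 4 libraries, per the file's values (each column sums to 1000000); Salmon 0.9.1 and GRCm38 are named in the submitters' processing notes. The sources used here do not give the annotation or how transcripts were summed. Multiplied by 4, values of WT 1, WT 2 and KO 1 end within 6 decimals, and those of KO 2 do when multiplied by 3, so they look like means of 4 and of 3 values. TPM keeps no depth, so depth is unknown and values carry no counting interval. Meis2 was at 79.0 and 88.7 TPM in WT and 73.2 and 76.6 TPM in KO, which checks nothing about the labels, since the mutated part is unknown.

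Gene IDs were matched to GENCODE M21 (34582 of 34866 named). The 14496 genes whose mean reached 1 TPM were fitted on log2(TPM + 1) with limma 3.58.1 (R 4.3.3), with genotype alone in the model, with a mean-variance trend, two-sided, Benjamini-Hochberg adjustment and a threshold of 0.05. This scale understates differences of low genes. The fit was tested on simulated data. Alternatives were other pseudocounts, filters, scalings and variance moderation, a replicate block and leaving out each library. An exact test of 2 libraries against 2 cannot give a two-sided p below 0.333. Transcripts of other genes sharing at least 200 bases at 90% identity with a member were searched with BLAST; Gm3774, Gm45596 and Gm13735 were listed at 0 in all libraries.

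The members and the other gene lists, the latter from general knowledge, were chosen with earlier results of these data known. Named genes are the members, the 2 genes of a list with the smallest p (4 for growth targets, 1 for cell types) and the 5 nearest to Myc; others were named after their values were seen. Pvt1, listed for the Myc locus, was not analysed here. The values of 1 gene that this rule names are not reported here.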

Additional observations from a re-analysis of the deposited data

How the results depend on the processing

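The difference of Myc was below 0 in all 11 alternatives. It was -0.91 with a pseudocount of 0.1 TPM and -0.66 with one of 5 TPM, which shrinks differences by construction, and lay between -0.90 and -0.81 with a library left out. Mxd3 was above 0 in all 11, from 0.22 without WT 1 to 0.35 without WT 2. Of the other 8 members, each changed sign in at least 1 alternative, within -0.32 and 0.20. None moved by more than the SD between its libraries. With a library left out this is so by arithmetic, so it is no sign of stability. The count of genes past the threshold was 0 with every pseudocount, filter, scaling and variance setting, and ranged from 0 to 10 with a library left out (a lone library is then assumed to vary like the other genotype). The replicate block also gave 0 genes, with 1178 at an unadjusted p under 0.05; its 2 pairs share only a number, and the deviations of same-numbered libraries correlated at 0.42 across genes. The median of the growth targets stayed between -0.07 and -0.03. Depth is unknown, so its limit on these values cannot be given.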
